A study of Homo sapiens with 24 samples.

Results

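The genes described here encode the machinery that copies nuclear DNA. They are 51 genes listed by symbol, not by their response, and each was read from the probe sets whose annotation names that gene and no other. The list had 94 such probe sets among the 54613 deposited besides controls, of which 84 in all 51 genes passed the filter on low signal that left 26036 probe sets and 12026 genes in the tests. For each gene, the tested probe set with the highest mean over all arrays stood for the gene. The cells were RWPE1, a non-tumorigenic line of human prostate epithelium immortalized with a human papillomavirus, whose oncoproteins are known to bind p53 and the retinoblastoma protein. The cultures received 100 nM 1,25(OH)2D, the active form of vitamin D, or vehicle (ethanol at 0.1%), and were taken after 6, 24 or 48 h. Each of the 6 groups held 4 biological replicates of 1 cell line, measured on 24 Affymetrix arrays with 1 sample each, and all cultures were at 60% confluence when treatment began. Cultures kept for 48 h had their medium changed halfway, at 24 h, so longer exposure and fresh medium cannot be told apart between 24 and 48 h. As labelled, the arrays read as epithelium: the basal keratins KRT5 and KRT14 lay between 15.24 and 16.21 on the log2 scale on every array, and of the luminal markers the keratins KRT8 and KRT18 were bright too, between 12.26 and 14.76, while KLK3 stayed between 3.42 and 5.20. The immune marker PTPRC lay between 3.22 and 3.82 and the endothelial marker CDH5 between 2.76 and 3.09. Of the stromal markers, COL1A1 was bright, from 9.45 to 10.72, while COL1A2, COL3A1, DCN, LUM and PDGFRB were all at or below 3.52.

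DNA replication starts when the origin recognition complex, with CDC6 and CDT1, loads the ring of MCM proteins onto origins in G1, a step called licensing. On entry to S phase, kinases such as CDC7 with DBF4 turn the loaded ring into an active helicase with CDC45 and the GINS complex. Polymerase alpha with its primase then starts each strand, and polymerases delta and epsilon, tied to the DNA by the sliding clamp PCNA, extend it. Most of these genes are transcribed together in late G1 under E2F factors, which pocket proteins such as RB hold back, and 1,25(OH)2D is known to slow the growth of prostate epithelial cells. Array values came from whole cultures at equal RNA input, so fewer cells in S phase and less RNA of these genes per cell cannot be told apart.

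Because E2F factors bind promoters with letters such as TTTCGCGC, the 250 bases upstream of annotated starts (RefSeq, GRCh38.p14) were searched on both strands for TTTCCCGC, TTTCGCGC, TTTGCCGC and TTTGGCGC. RefSeq promoter entries matched 45 of the 51 genes, with 61 starts in all, since 11 genes had several and their windows can overlap. At least 1 of the letter strings was found upstream of 17 of the 45 genes (37.8%), against 928 of 27305 genes (3.40%) in the whole table, 3 of 25 mitosis genes (12.0%) and 5 of 31 other replication genes (16.1%). Counted by start, 18 of 61 windows (29.5%) held one, against 979 of 35116 (2.79%). A match describes letters and is not a measured binding site. The 4 windows below, all upstream of the start and read 5′ to 3′ on the strand of the gene, are shown because they belong to E2F1, TYMS and LIG1, which passed the treatment test at 48 h, and to MCM6, which did not and whose window had the most matches, 4. They lie at chr20:33686386-33686635 on the minus strand for E2F1, chr18:657403-657652 on the plus strand for TYMS, chr19:48170345-48170594 on the minus strand for LIG1 and chr2:135876444-135876693 on the minus strand for MCM6. Capitals mark the matches on either strand, and the matches upstream of MCM6 overlap in pairs.
E2F1: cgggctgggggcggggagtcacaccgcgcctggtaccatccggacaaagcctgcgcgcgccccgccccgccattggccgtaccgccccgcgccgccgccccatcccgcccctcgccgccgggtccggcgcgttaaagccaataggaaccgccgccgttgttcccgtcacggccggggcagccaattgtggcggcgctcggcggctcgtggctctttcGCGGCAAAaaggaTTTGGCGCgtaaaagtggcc
TYMS: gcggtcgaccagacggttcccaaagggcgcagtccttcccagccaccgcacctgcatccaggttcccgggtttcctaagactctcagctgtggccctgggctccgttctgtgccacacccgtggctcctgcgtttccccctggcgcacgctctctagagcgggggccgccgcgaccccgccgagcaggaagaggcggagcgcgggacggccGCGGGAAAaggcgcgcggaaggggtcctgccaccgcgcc
LIG1: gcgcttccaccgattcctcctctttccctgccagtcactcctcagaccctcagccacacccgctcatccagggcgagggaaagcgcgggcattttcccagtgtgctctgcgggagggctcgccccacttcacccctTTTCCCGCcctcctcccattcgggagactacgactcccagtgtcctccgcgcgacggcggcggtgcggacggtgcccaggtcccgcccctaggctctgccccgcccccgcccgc
MCM6: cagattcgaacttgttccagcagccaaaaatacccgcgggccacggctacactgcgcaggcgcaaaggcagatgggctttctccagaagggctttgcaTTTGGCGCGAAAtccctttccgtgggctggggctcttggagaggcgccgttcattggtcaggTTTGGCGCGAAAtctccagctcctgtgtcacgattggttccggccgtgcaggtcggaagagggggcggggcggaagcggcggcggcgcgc
The window of E2F1 held 2 matches, and those of TYMS and LIG1 held 1 each. The windows of RPA1, TIMELESS and both starts of POLD1, the other genes that passed the test at 48 h, held 0. MCM6 with 4 matches had a log2 change of -0.023 (SE 0.077).

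Of the 24 arrays, 4 stood apart from their groups: the first component of the values after group means were removed held 71.9% of the remaining variance, and vehicle 6 h replicate 1, vehicle 24 h replicate 1 and 1,25(OH)2D 24 h replicates 1 and 4 lay more than 0.3 from 0 on it. None was a 48 h array, though arrays were picked on this component alone. The replication genes shared in this spread: the mean SD over the 51 genes was 0.349 in the 1,25(OH)2D 24 h group against 0.0802 in the vehicle 48 h group. In the 1,25(OH)2D 24 h group, replicate 4 was lowest and replicate 1 highest for RFC1, CDC7 and MCM8, while replicate 4 was highest and replicate 1 lowest for LIG1 and POLD1. Across the 51 genes, the log2 change with treatment at 24 h ran with the loading of each gene on that component (Pearson r = -0.876, Spearman rho = -0.838, a description over genes that share the same 8 arrays), while r was -0.344 at 6 h and -0.206 at 48 h. Without the arrays that stood apart r was -0.908 at 24 h and -0.836 at 6 h (rho -0.857). Those arrays were picked by their scores on this component, so leaving them out moves the group means along it. These r are therefore partly built in, and no conclusion about the 6 h changes is drawn from them. The part of this component in the 24 h changes was not tested, and counts that use those arrays are given with and without them.

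**Figure D1:**
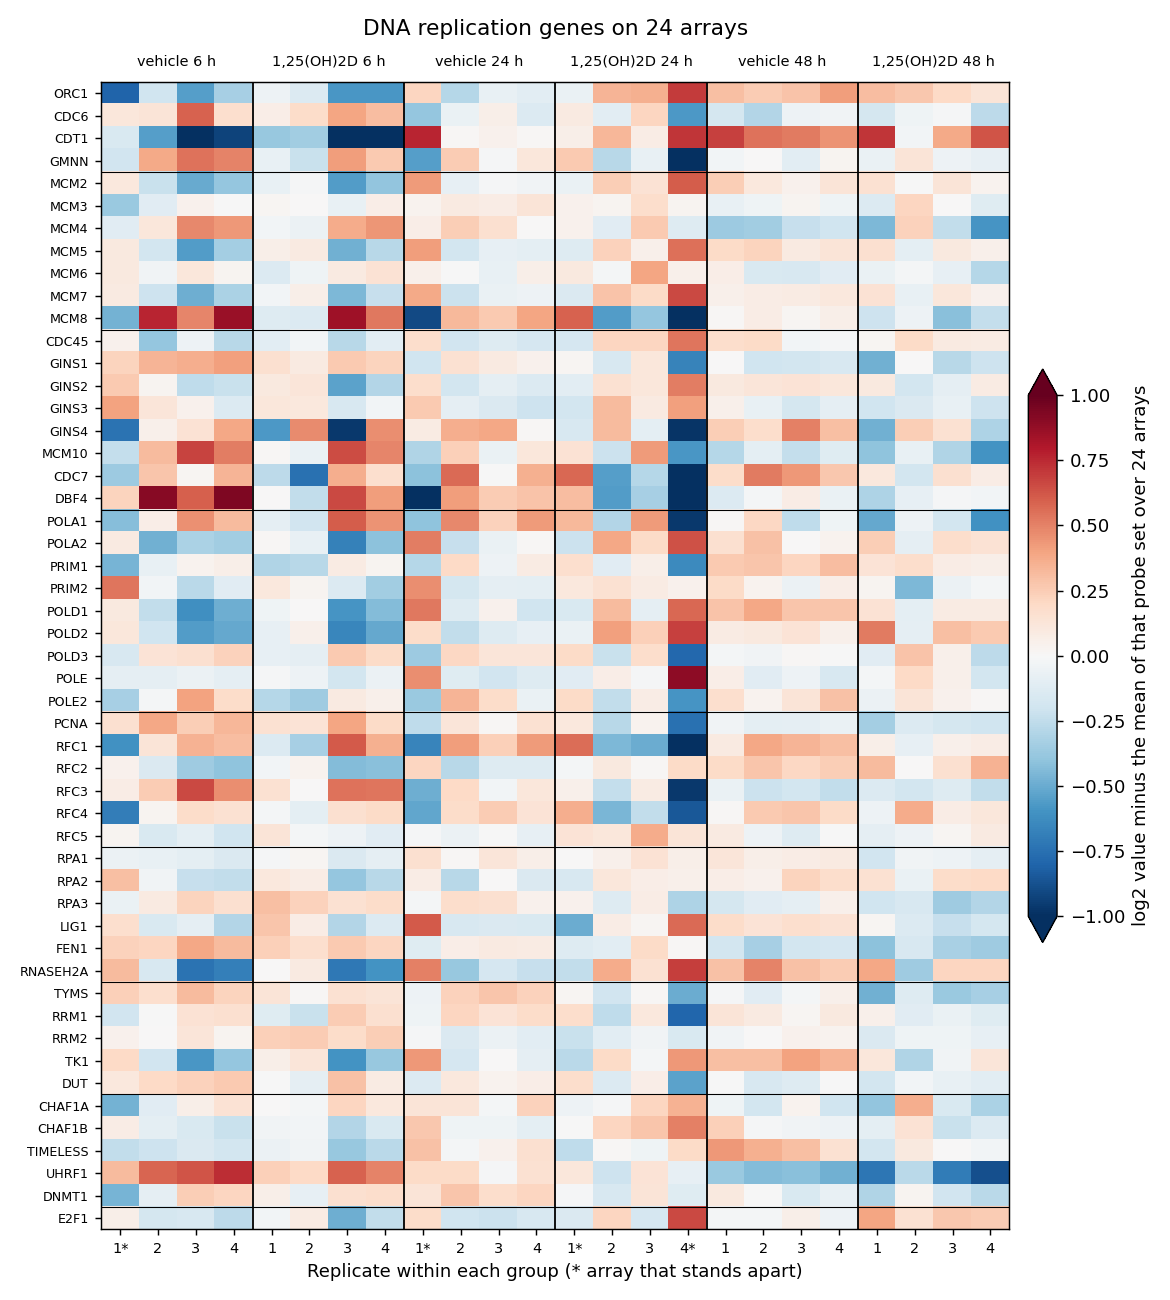
Values of 51 DNA replication genes (vertical) on 24 arrays (horizontal, 4 replicates per group, asterisks on the 4 arrays that stood apart), as log2 value minus the mean of that probe set, with red above and blue below. The 48 h vehicle arrays are alike (mean SD 0.0802), whereas replicates 1 and 4 of the 24 h 1,25(OH)2D group differ in many genes in opposite directions.

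Averaged over the 51 genes, the level per array moved little. On the first component described above, 24 of the genes had a loading below 0 and 27 above 0. Opposite movements along it can therefore cancel in this mean, and changes of single genes at 24 h ran from -0.68 to 0.39. Vehicle arrays at 6 h read 10.45, 10.53, 10.53 and 10.53 and 1,25(OH)2D arrays read 10.50, 10.48, 10.46 and 10.50, so the groups overlapped. At 24 h the vehicle arrays read 10.52, 10.55, 10.53 and 10.54 and the treated arrays 10.53, 10.49, 10.58 and 10.35, which also overlapped, the lowest being replicate 4. At 48 h the vehicle arrays read 10.58, 10.56, 10.56 and 10.56 and the treated arrays 10.44, 10.49, 10.47 and 10.42, so every treated array lay below every vehicle array. The group means (1,25(OH)2D minus vehicle) thus differed by -0.024 at 6 h, then -0.047 at 24 h, and by -0.110 after 48 h. With each array centred on its own median these were -0.036, 0.120 and -0.074: the sign at 24 h turned. A list of 30 mitosis genes differed more in the values without centring, with -0.58 at 24 h and -0.28 at 48 h, and no centred value is given for it. Its 24 h groups overlapped, between 10.70 and 11.34 with vehicle and between 10.04 and 10.95 with 1,25(OH)2D. Vehicle replicate 1 (10.70) and treated replicate 4 (10.04) were the lowest of these groups, and treated replicate 1 (10.95) was the highest treated array. All of them stood apart, and the part of the first component in the mitosis difference was not tested. The 48 h arrays of the mitosis list lay between 11.05 and 11.26 with vehicle and between 10.80 and 10.95 with 1,25(OH)2D.

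**Figure D2:**
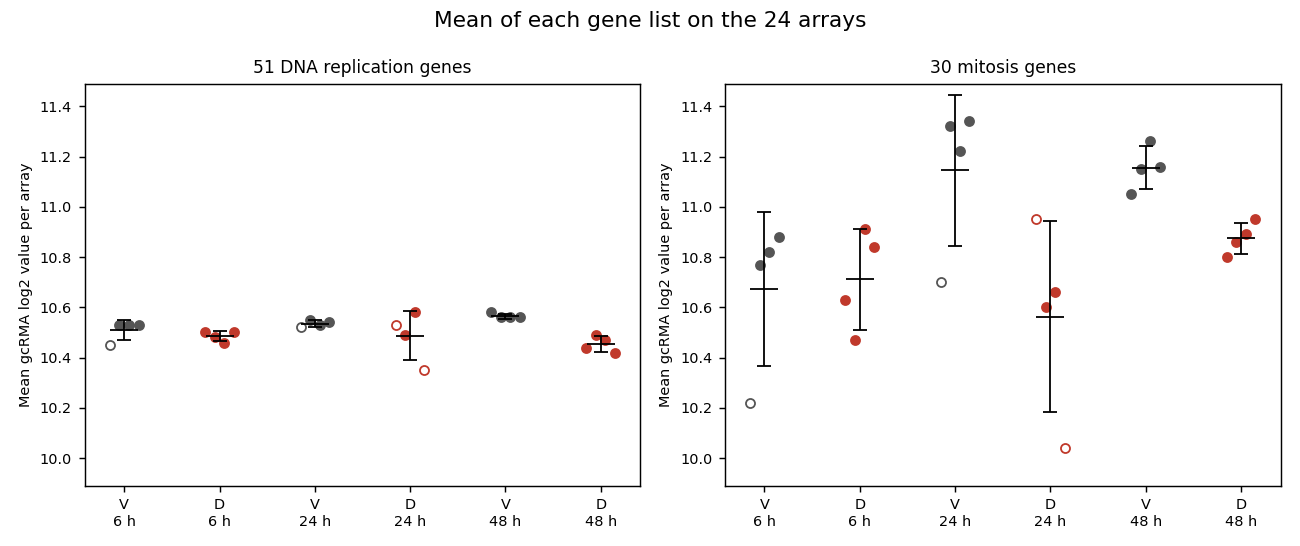
Mean gcRMA log2 value per array (vertical) of 51 DNA replication genes and of 30 mitosis genes in the 6 groups (horizontal; V, vehicle; D, 1,25(OH)2D). Points are arrays, open points the 4 that stood apart, and bars the mean and SD of 4 arrays; the replication means at 48 h are 10.57 with vehicle and 10.46 with 1,25(OH)2D.

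The first question was whether 1,25(OH)2D changed the replication genes within 6 h. None of the 51 genes passed the test at 6 h (limma, Benjamini-Hochberg adjusted p under 0.05 over 26036 probe sets), where 2.69% of all probe sets did. At an unadjusted p under 0.05, which 9.48% of all probe sets met, there was 1 gene, RRM2, the inducible subunit of ribonucleotide reductase. Its vehicle arrays read 13.07, 13.03, 13.15 and 13.05 and its treated arrays 13.26, 13.28, 13.21 and 13.27. The difference was 0.18, and SAM, the permutation method named in the study, called it where it called 6.21% of all probe sets, whereas limma gave an adjusted p of 0.429. A second RRM2 probe set gave 0.14 (SE 0.1) and did not pass. TYMS at 6 h read from 13.15 to 13.29 with treatment and from 13.31 to 13.46 with vehicle, and it did not meet the unadjusted threshold. For 39 of the 51 genes the 95% interval of the change at 6 h lay within 1.5-fold either way, against 60.2% of all probe sets. Without vehicle replicate 1, which stood apart, the count was again 0 where 3.14% of all probe sets passed. The median change was -0.012, beside -0.031 over all probe sets.

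At 24 h again 0 of 51 genes passed, where 0.353% of all probe sets did. At an unadjusted p under 0.05, which 8.57% of all probe sets met, there were 3 genes, RFC5 (0.22), TYMS (-0.34) and DNMT1 (-0.24), and SAM called 2 of them, RFC5 higher and DNMT1 lower, where it called 5.43% of all probe sets. The precision was lower than at the other times, and the interval lay within 1.5-fold for 23 of 51 genes against 46.6% of all probe sets. Without the 3 arrays that stood apart at 24 h the test called 12 of the 51 (23.5%), 7 higher and 5 lower, but it then also called 21.1% of all probe sets. Higher were ORC1 (0.50), MCM7 (0.35), CDC45 (0.37), GINS2 (0.27), POLD2 (0.48), RNASEH2A (0.52) and CHAF1B (0.31), and lower were MCM8 (-0.80), DBF4 (-0.76), RFC1 (-0.83), RFC4 (-0.54) and TYMS (-0.33). These calls compare 2 treated with 3 vehicle arrays. The changes ran with the loadings on the component described above (Pearson r = -0.908), by whose scores the arrays were left out. The median change in this fit was 0.011 over the 51 genes.

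At 48 h, when the arrays were most alike, 6 of the 51 genes (11.8%) passed. Over all probe sets 9.61% did, so the share of the list was near that of all probe sets. Each gene was read from its brightest probe set, however. In a fit of the 15000 probe sets of highest signal 15.4% passed, which is above the share of the list. Of the 6 genes, 5 fell, POLD1, RPA1, LIG1, TYMS and TIMELESS, where 5.61% of all probe sets fell. The other, E2F1, rose, where 4.01% rose. Over the list, 40 genes lay below 0 and 11 above, with a median log2 change of -0.10 beside -0.0089 over all probe sets. At an unadjusted p under 0.05 there were 15 genes, 14 of them lower, where 22.9% of all probe sets passed. In 12 genes every treated array lay below every vehicle array, where 9.24% of probe sets did so, and in 1 every treated array lay above, where 6.81% did. For 49 of the 51 genes the 95% interval lay within 1.5-fold, against 81.4% of all probe sets, the exceptions being GINS4 and POLA1. SAM called 11 genes at 48 h, adding MCM8, PRIM1, RFC1, RRM1 and TK1 on the lower side, where it called 13.6% of all probe sets.

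These 48 h calls lay near the threshold. The limma fit of all 24 arrays, which takes its spread from every group, called 0 of the 51, where it called 3.74% of all probe sets. Leaving out any single 48 h array gave between 0 and 10 calls, and the share of all probe sets called moved with it, from 6.17% to 13.6%. The count was 0 without vehicle replicate 2 (6.17% of all probe sets) or without 1,25(OH)2D replicate 3 (6.21%) or 4 (6.82%). It was 1 without vehicle replicate 1 (7.49%), 3 (6.93%) or 4 (6.55%), 3 without 1,25(OH)2D replicate 1 (7.94%) and 10 without 1,25(OH)2D replicate 2 (13.6%). The 6 log2 changes themselves kept their sign in all of these fits. Treated replicate 2, whose removal gave 10 calls, did not stand apart on the first component. It lay at -0.447 on the second, which held 6.82% of the variance left after group means were removed.

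**Figure D3:**
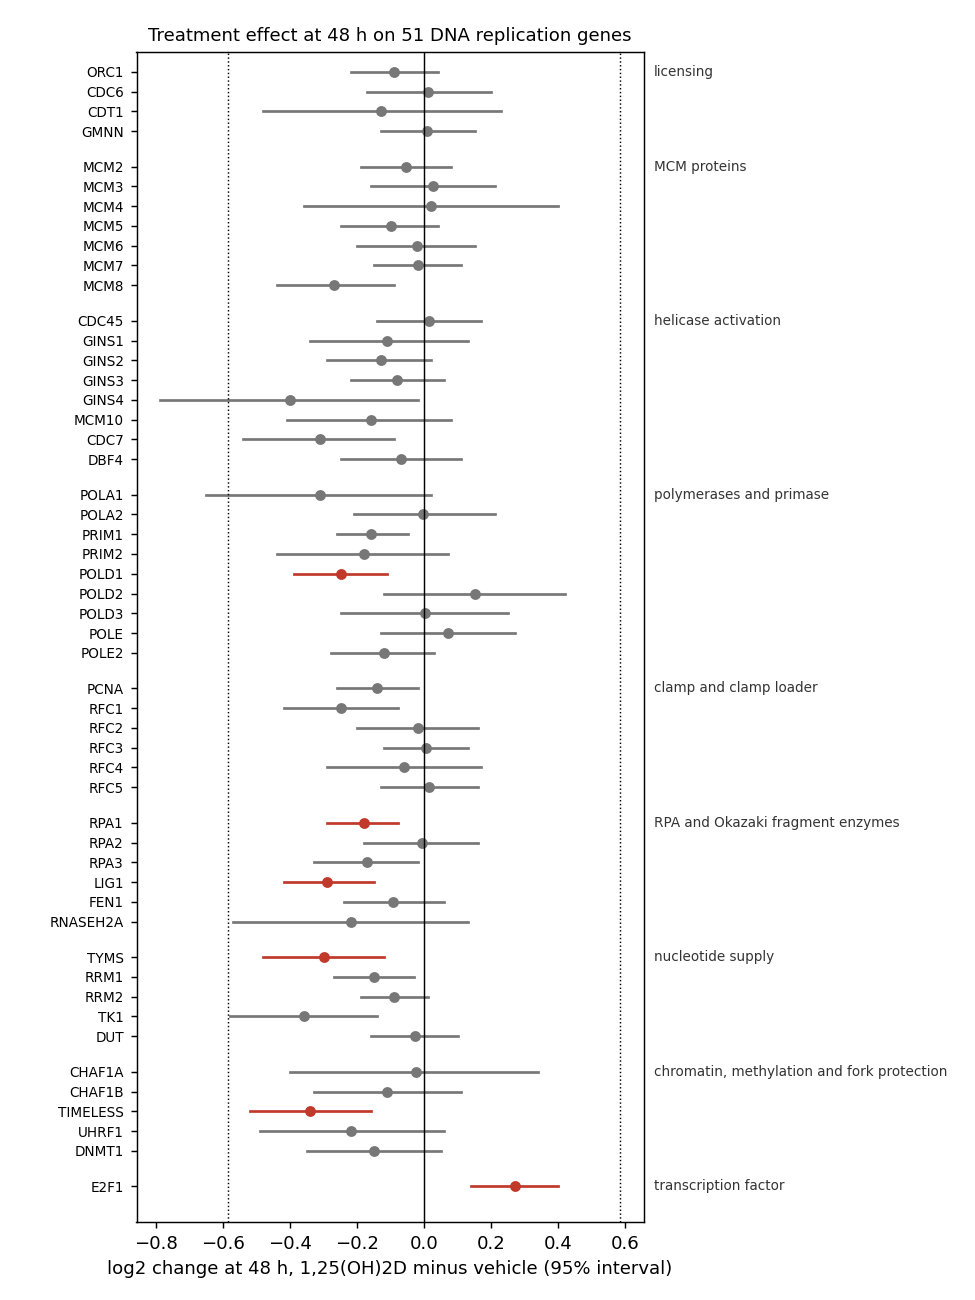
Log2 change at 48 h, 1,25(OH)2D minus vehicle (horizontal), with its 95% interval from limma for each of the 51 genes (vertical, grouped by role, 4 arrays against 4). Red marks the 6 genes with an adjusted p under 0.05, dotted lines mark a 1.5-fold change, and 40 of 51 points lie below 0.

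Taken by role, the licensing genes gave 0 calls at 48 h. None of ORC1, CDC6, CDT1 and geminin (GMNN, the inhibitor of CDT1) passed, and their changes ran from -0.13 to 0.01. ORC1, the largest subunit of the origin recognition complex, read 9.20, 9.16, 9.19 and 9.32 with vehicle and 9.21, 9.17, 9.10 and 9.03 with 1,25(OH)2D. These overlapped, and the change was -0.091 (SE 0.056). CDT1, the loader of the MCM ring, read 11.69, 11.55, 11.53 and 11.46 with vehicle and 11.72, 10.98, 11.39 and 11.64 with treatment. The treated arrays spread around the vehicle arrays, replicate 2 being the lowest, and without it the change went from -0.13 to 0.03. The probe set of CDT1 is of a type that may also bind other transcripts.

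The MCM proteins form the helicase ring, apart from MCM8, which acts in recombination. For the 6 ring subunits, MCM2 to MCM7, the changes at 48 h ran from -0.10 for MCM5 to 0.03 for MCM3, and every interval lay within 1.5-fold. MCM5 read 12.70, 12.73, 12.60 and 12.64 with vehicle and 12.67, 12.41, 12.61 and 12.56 with 1,25(OH)2D, which overlapped. MCM8 read 7.65, 7.71, 7.66 and 7.70 with vehicle and 7.43, 7.59, 7.22 and 7.40 with 1,25(OH)2D. Every treated array was lower, yet the change of -0.27 (SE 0.075) had a limma adjusted p of 0.0671, and a second probe set of MCM8 gave 0.011.

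Among the genes that activate the helicase, none of 8 passed, and 7 lay below 0. GINS4, a subunit of the GINS complex, had the largest change of the 51, -0.40 (SE 0.17), with an adjusted p of 0.199. Its arrays overlapped, at 8.37, 8.30, 8.63 and 8.43 with vehicle and 7.65, 8.37, 8.28 and 7.82 with treatment. CDC7, the kinase that phosphorylates the MCM ring, read 8.88, 9.21, 9.13 and 8.96 with vehicle and 8.80, 8.51, 8.85 and 8.77 with treatment. Those groups did not overlap, and its change was -0.31 (SE 0.098, adjusted p = 0.096 with limma). DBF4, the activating partner of CDC7, was at -0.071, and CDC45 at 0.014.

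Of the 9 polymerase and primase genes, POLD1, the catalytic subunit of polymerase delta, passed. It read 10.94, 11.04, 10.93 and 10.93 with vehicle and 10.80, 10.56, 10.74 and 10.74 with 1,25(OH)2D. Every treated array was lower, and the fall was 1.19-fold (log2 -0.25, SE 0.062, limma adjusted p = 0.0426). The other delta subunits measured, POLD2 and POLD3, were at 0.15 and 0.0029. PRIM1, the catalytic subunit of primase, read 9.89, 9.90, 9.84 and 9.93 with vehicle and 9.76, 9.80, 9.70 and 9.68 with treatment, without overlap. Its change was -0.16 (SE 0.045, limma adjusted p = 0.0696). The catalytic subunits of the alpha and epsilon enzymes, POLA1 and POLE, were at -0.31 (SE 0.14) and 0.071 (SE 0.088).

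PCNA and the 5 subunits of its loader, RFC1 to RFC5, gave 0 calls. PCNA read 13.48, 13.42, 13.43 and 13.45 with vehicle and 13.18, 13.38, 13.34 and 13.32 with treatment. Every treated array was lower by this narrow margin, and the change was -0.14 (SE 0.053, limma adjusted p = 0.159). RFC1, the large subunit, read 8.84, 9.14, 9.09 and 9.05 with vehicle and 8.81, 8.67, 8.80 and 8.83 with treatment. The change was -0.25 (SE 0.074, limma adjusted p = 0.0781), from a probe set that may also bind other transcripts. RFC2 to RFC5 ran from -0.061 to 0.015.

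The single-strand binding protein RPA and the enzymes that join Okazaki fragments all lay below 0, and 2 of 6 passed. LIG1, the ligase that seals the fragments, read 9.48, 9.43, 9.46 and 9.44 with vehicle and 9.31, 9.16, 9.06 and 9.12 with 1,25(OH)2D. Every treated array was lower, with an SD of 0.020 in vehicle and 0.11 with treatment. The fall was 1.22-fold (log2 -0.29, SE 0.058, limma adjusted p = 0.0196). RPA1, the large RPA subunit, read 12.41, 12.35, 12.36 and 12.38 with vehicle and 12.10, 12.25, 12.24 and 12.20 with treatment. It fell by 1.13-fold (log2 -0.18, SE 0.045, limma adjusted p = 0.0462), and a second probe set of RPA1 gave -0.21 (adjusted p = 0.0304). RPA2 was at -0.0076 and RPA3 at -0.17, and FEN1, the flap endonuclease, was at -0.094.

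Of the 5 enzymes of nucleotide supply, all below 0, TYMS passed. TYMS, thymidylate synthase, read 13.13, 13.03, 13.12 and 13.19 with vehicle and 12.66, 13.01, 12.77 and 12.81 with 1,25(OH)2D. Treated replicate 2 lay just under the lowest vehicle array, and the fall was 1.23-fold (log2 -0.30, SE 0.077, limma adjusted p = 0.0489). A second TYMS probe set gave -0.31 (adjusted p = 0.126). TK1, the thymidine kinase of the salvage route, read 12.52, 12.52, 12.62 and 12.56 with vehicle and 12.33, 11.92, 12.18 and 12.34 with treatment. The groups did not overlap, but its change of -0.36 (SE 0.094) missed the threshold in the chosen probe set (limma adjusted p = 0.0517) and met it in the second (-0.38, adjusted p = 0.0398). The reductase subunits RRM1 and RRM2 were at -0.15 and -0.091, and DUT, the dUTPase, at -0.029.

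Among the genes for chromatin assembly, maintenance methylation and fork protection, all 5 lay below 0 and TIMELESS passed. TIMELESS, a fork protection factor, read 10.30, 10.22, 10.17 and 10.02 with vehicle and 9.68, 9.96, 9.87 and 9.84 with 1,25(OH)2D. It fell by 1.27-fold (log2 -0.34, SE 0.079, limma adjusted p = 0.0352), the largest of the 6 called changes. UHRF1, which brings DNMT1 to newly copied DNA, read 11.06, 11.00, 11.01 and 10.95 with vehicle and 10.71, 11.16, 10.73 and 10.55 with treatment. Replicate 2 of the treated group lay above all vehicle arrays, and the change was -0.22 (SE 0.12, limma adjusted p = 0.341). DNMT1, the maintenance methyltransferase, was at -0.15, and the chromatin assembly subunits CHAF1A and CHAF1B at -0.026 and -0.11.

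E2F1, the transcription factor of the list, moved the other way. It read 6.70, 6.70, 6.78 and 6.67 with vehicle and 7.11, 6.87, 6.99 and 6.97 with 1,25(OH)2D at 48 h. Every treated array was higher, and the rise was 1.21-fold (log2 0.27, SE 0.058, limma adjusted p = 0.0240). A second, dimmer E2F1 probe set gave 0.28 (adjusted p = 0.206). At 24 h the change was 0.24, but the treated arrays spread from 6.55 to 7.38, and at 6 h it was -0.037.

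**Figure D4:**
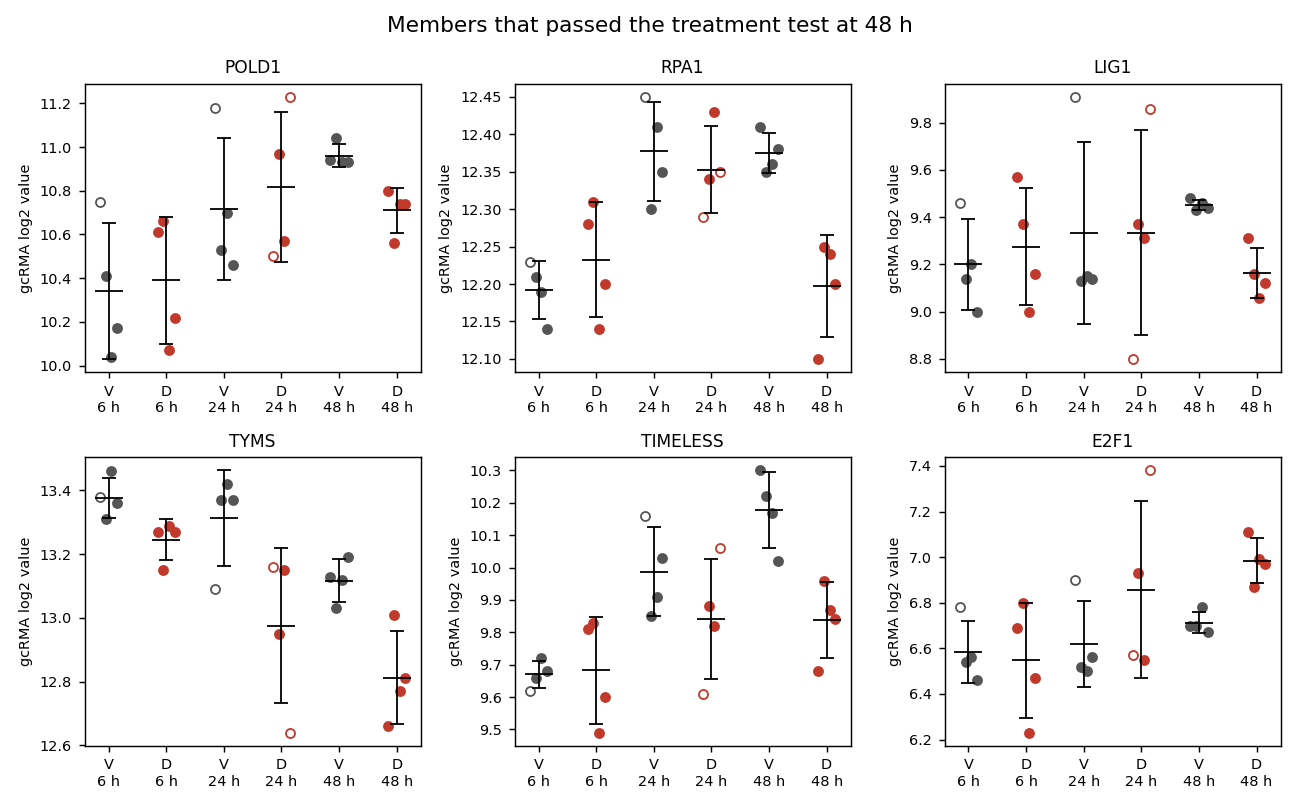
gcRMA log2 values (vertical, a scale of its own for each gene) of the 6 genes that passed the treatment test at 48 h, in the 6 groups (horizontal; V, vehicle; D, 1,25(OH)2D). Points are arrays, open points the 4 that stood apart, bars the mean and SD of 4; at 48 h the treated arrays lie below vehicle for POLD1, RPA1, LIG1, TYMS and TIMELESS and above it for E2F1.

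Whether the effect of treatment changed between times was tested directly. None of the 51 genes passed for 24 against 6 h, where 2.11% of all probe sets did, and none for 48 against 6 h, where 2.79% did. At an unadjusted p under 0.05 there were 2 and 4 genes, where 12.0% and 9.78% of probe sets passed. The 48 h calls of POLD1, RPA1, LIG1, TYMS, TIMELESS and E2F1 are therefore not shown to differ from their 6 h effects. Without the arrays that stood apart 0 passed for 24 against 6 h and 1 for 48 against 6 h, where 4.04% and 5.45% of all probe sets did. The 24-array fit used here has wider intervals than the 48 h arrays alone, since it draws on the 6 and 24 h groups too.

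Some replication genes passed the test for change with time in culture in either medium. In vehicle, 4 of 51 (7.84%) changed from 6 to 24 h, where 7.81% of all probe sets did, so these shares were near. In the fit of the 15000 probe sets of highest signal 11.1% changed. CDT1 and RPA1 rose, and FEN1 and UHRF1 fell. Under 1,25(OH)2D, 11 (21.6%) changed over the same interval, where 16.7% of all probe sets did and 26.1% of those of highest signal. ORC1, CDT1, MCM2, POLD2 and CHAF1B rose, and PCNA, RFC3, RPA3, FEN1, RRM2 and UHRF1 fell. These counts use different arrays, and the difference between them was tested above as the 24 against 6 h effect, with 0 genes. From 24 to 48 h, 0 changed in vehicle, where 0.315% of probe sets did, and 2 (3.92%) fell under 1,25(OH)2D, FEN1 and UHRF1, where 1.91% did. At an unadjusted p under 0.05 the vehicle count was 5, where 8.22% of all probe sets passed.

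CDT1 rose most. In vehicle it read 10.86, 10.46, 9.93 and 10.08 at 6 h and 11.77, 11.02, 11.05 and 11.02 at 24 h, without overlap. The rise was 0.88 (SE 0.24, limma adjusted p = 0.0291) in vehicle and 1.09 (SE 0.24, adjusted p = 0.0046) under 1,25(OH)2D, where it read 10.63, 10.66, 9.71 and 9.85 at 6 h. ORC1 under 1,25(OH)2D went from 8.85, 8.77, 8.32 and 8.32 at 6 h to 8.84, 9.24, 9.26 and 9.60 at 24 h. Replicate 1 at 24 h lay just under the top 6 h array, and the rise was 0.67 (SE 0.15, limma adjusted p = 0.00557).

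UHRF1 was lower at each later time. In vehicle the 6 h arrays read 11.75, 12.01, 12.06 and 12.17, those at 24 h 11.62, 11.62, 11.42 and 11.58, and those of 48 h lay between 10.95 and 11.06, with no overlap between times. The first step was -0.44 (SE 0.12, limma adjusted p = 0.0293), and the second, which missed the threshold, was -0.55. With 1,25(OH)2D the 6 h arrays read 11.67, 11.63, 12.02 and 11.93 and those of 24 h 11.54, 11.22, 11.57 and 11.35. The treated steps were -0.39 (adjusted p = 0.0328) and -0.63 (adjusted p = 0.00785). FEN1 had the same order of times: its vehicle means were 11.95, 11.69 and 11.44 (SD 0.081, 0.10 and 0.074, n = 4) and its treated means 11.88, 11.65 and 11.35 (SD 0.040, 0.14 and 0.11, n = 4). RRM2 fell under 1,25(OH)2D from between 13.21 and 13.28 at 6 h to between 12.80 and 12.99 at 24 h (log2 -0.36, SE 0.054, limma adjusted p = 0.000113). In vehicle its arrays went from between 13.03 and 13.15 to between 12.88 and 13.01, and that change did not pass. PCNA under 1,25(OH)2D fell by 0.44 on the log2 scale (SE 0.13, limma adjusted p = 0.0283), with replicate 4 at 24 h the lowest of its 24 arrays at 12.77. Leaving out 1 array at a time moved the PCNA change between -0.55 and -0.27, and it no longer passed without 6 h replicate 3 or 4 or without 24 h replicate 2 or 4, the value of -0.27 being without 24 h replicate 4.

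These time counts rest partly on the arrays that stood apart. Without those 4, the 6 to 24 h counts were 2 in vehicle and 17 under 1,25(OH)2D, where 10.5% and 25.3% of all probe sets passed, and the 24 to 48 h counts were 3 and 4, where 2.90% and 5.41% passed. Leaving out 1 array at a time gave 0 to 4 genes in vehicle and 3 to 25 under 1,25(OH)2D for 6 to 24 h, the 25 being without 1,25(OH)2D 24 h replicate 1, where 38.8% of all probe sets passed, and the 3 without replicate 2 or replicate 4 of that group, where 10.3% and 9.71% passed. For vehicle the count was 0 without vehicle 6 h replicate 2, 3 or 4 and 1 without vehicle 24 h replicate 1, 3 or 4, where between 5.60% and 6.35% of all probe sets passed. It was 4 under 1,25(OH)2D without 6 h replicate 3 or 4 of that treatment, where 8.35% and 9.18% passed. From 24 to 48 h under 1,25(OH)2D it was 4 without 24 h replicate 1, where 7.47% passed, and 1 without 24 h replicate 2, 3 or 4 or 48 h replicate 1, 3 or 4, where between 0.764% and 1.39% passed. CDT1, ORC1 and RRM2 under 1,25(OH)2D for 6 to 24 h, and UHRF1 under 1,25(OH)2D for 24 to 48 h, passed in all 8 of these fits.

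**Figure D5:**
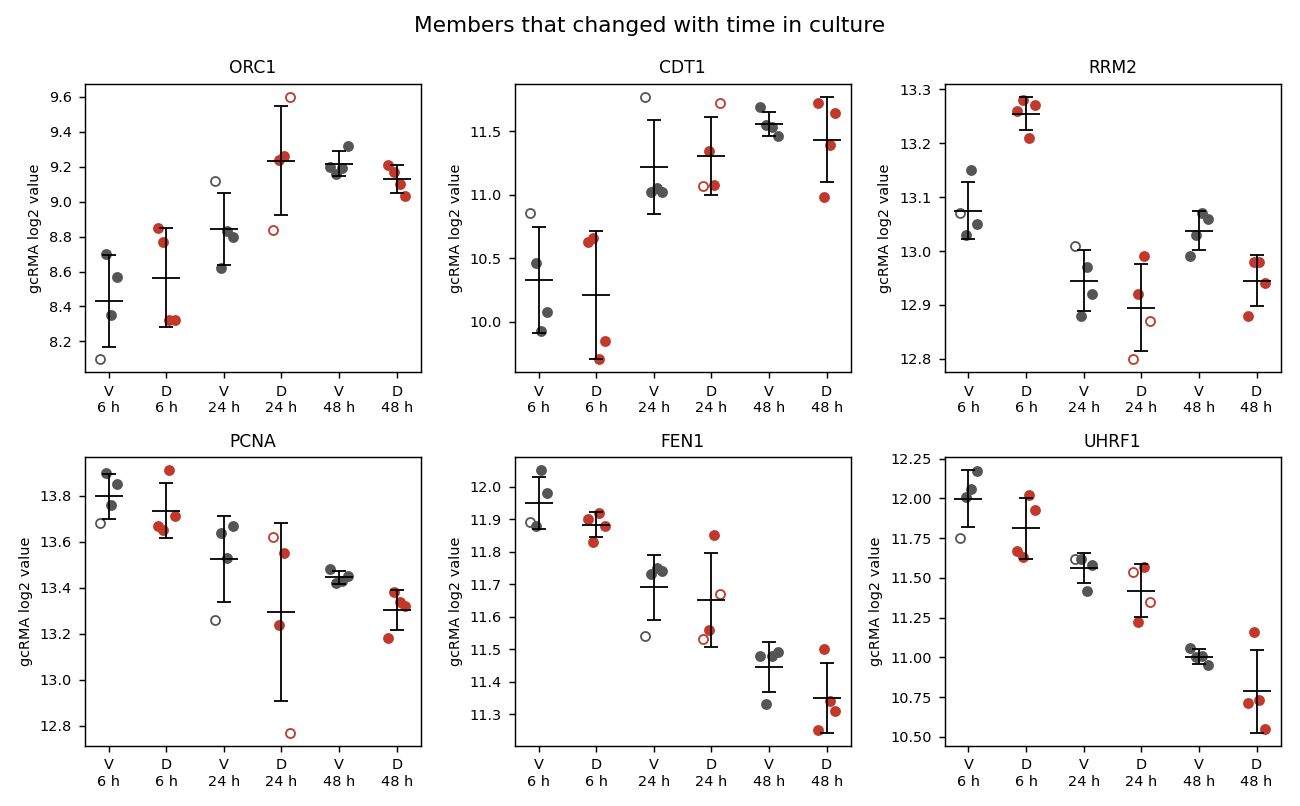
gcRMA log2 values (vertical, a scale of its own for each gene) of ORC1, CDT1, RRM2, PCNA, FEN1 and UHRF1 in the 6 groups (horizontal; V, vehicle; D, 1,25(OH)2D). Points are arrays, open points the 4 that stood apart, bars the mean and SD of 4; the vehicle means of UHRF1 are 12.00 at 6 h and 11.01 at 48 h, and those of CDT1 10.33 and 11.56.

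Genes related to replication but outside the 51 were read from lists of other replication genes, the E2F family and its partners, G1/S cyclins and inhibitors, and mitosis. Over all probe sets 9.61% passed at 48 h, 5.61% lower and 4.01% higher. At 48 h, 2 of 37 other replication genes passed, both lower: CHTF18, of an alternative clamp loader (-0.26, limma adjusted p = 0.0101), and RBBP7, a histone-binding protein (-0.20, adjusted p = 0.0359). In the E2F list 2 of 11 passed, both lower: TFDP2, a dimer partner of E2F factors (-0.25, adjusted p = 0.0275), and the pocket protein RBL2 (-0.23, adjusted p = 0.0171). In the G1/S list 2 of 10 passed: cyclin E1, CCNE1, rose from between 5.91 and 6.24 to between 6.42 and 6.58 (0.38, adjusted p = 0.0179), and cyclin A2, CCNA2, fell (-0.34, adjusted p = 0.0468). In the mitosis list 9 of 30 passed, all lower, with a list median of -0.24 beside -0.10 for the 51. The kinesin KIF11 (-0.58, adjusted p = 0.00158) and the checkpoint kinase BUB1 (-0.40, adjusted p = 0.00495) had the smallest p. At 24 h all 30 mitosis genes lay below 0 with 0 passing, against 27 of the 51 replication genes below 0. Without the arrays that stood apart, 18 of the 30 were called lower at 24 h, where 3256 of 26036 probe sets were. That fit, with fewer arrays in both groups, called 21.1% of all probe sets in either direction, against 0.353% with all arrays. The arrays were left out by their scores on the first component, and its part in the mitosis calls was not tested. The difference between the lists was not tested.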

How the data were processed

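RNA from 24 RWPE1 cultures was hybridized to Affymetrix U133 Plus 2.0 arrays. Per the labels, the authors ran GCRMA over the 24 arrays in 1 step (version not given in the sources used here), and the deposited values are log2 expression per probe set. The members and lists were chosen with earlier results of these data known. The 62 array controls were set aside, which left 54613 probe sets. Probe sets were kept where 3 of the 4 arrays of a group reached a log2 value of 3.2, which left 26036. This stood in for the present or absent filter of the study's methods, whose calls were not used here. A gene was read from probe sets annotated to it alone. limma 3.58.1 (R 4.3.3) tested treatment on the 8 arrays of each time, and changes with time or of the effect on all 24, with Benjamini-Hochberg adjustment over 26036 probe sets and a threshold of 0.05. SAM, which the methods name, was rebuilt with all 70 relabellings. The fits were tested on simulated data with independent noise and equal spread in both treatments. Those data lack the component that the real arrays share, so they do not show how the fits behave under it. Genes were named by role: per-array values for the 2 per role with the smallest adjusted p at 48 h, for genes called over time, and up to 4 called genes of other lists. RRM2 and TYMS at 6 h and a few others were described after their values were seen. Alternatives were another fit, filter, normalization, offset or probe set, a replicate block, and each array left out. The number of arrays limits the precision, and p-values measure the spread between cultures of 1 line. Tables were handled with Python 3.11.15 and pandas 2.3.3, and figures with matplotlib 3.10.9.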

Additional observations from a re-analysis of the deposited data

Results flagged for a closer look

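Among 108 groups of 4 arrays checked (the list mean and 17 genes in 6 groups), 9 had 1 array far from the other 3, where chance gives about 1 in 20. Of these, 5 were vehicle 24 h replicate 1. It was highest for CDT1 (11.77, the others at a median of 11.02), MCM5 (12.93 against 12.41), LIG1 (9.91 against 9.14) and E2F1 (6.90 against 6.52). It was lowest for MCM8 (6.74 against 7.96). For the mean of the 51 genes, vehicle 6 h replicate 1 was lowest at 10.45 against 10.53. At 48 h, vehicle replicate 2 was highest for POLD1 (11.04 against 10.93) and 1,25(OH)2D replicate 2 was lowest for RFC1 (8.67 against 8.81). At 6 h, 1,25(OH)2D replicate 2 was lowest for TYMS (13.15 against 13.27).

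CCNE1 and E2F6, from lists beside the 51 genes, had an effect of 1,25(OH)2D that differed between times. Cyclin E1 (CCNE1), the G1/S cyclin that pairs with CDK2, had a treatment effect higher by 0.85 at 24 h than at 6 h (SE 0.17, limma adjusted p = 0.00533) and higher by 0.80 at 48 h than at 6 h (SE 0.17, adjusted p = 0.00792). E2F6, a repressor of the E2F family, had differences of 0.45 (SE 0.11, adjusted p = 0.0277) and 0.46 (SE 0.11, adjusted p = 0.0185). These differences include 6 h effects below 0. The effect of CCNE1 at 48 h was 0.38, less than its difference of 0.80. No effect in the E2F list was above 0.23 at 24 h or 0.32 at 48 h, less than the differences of E2F6. Over the same comparisons 0 of the 51 replication genes passed, where 2.11% and 2.79% of all probe sets did.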

How the results depend on the processing

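At 48 h the treatment count of 6 (9.61% of all probe sets called) became 0 with all 24 arrays in one fit (3.74%), 3 without a filter (3.01%), 3 after a second quantile normalization (9.38%), 2 with arrays centred on their medians (9.52%) and 11 with SAM (13.6%). SAM gave 1 at 6 h and 2 at 24 h, where limma gave 0, and 12 genes were called at 24 h without the arrays that stood apart (chosen after the data were seen). Whether the replicate numbers pair the arrays is not known. Correlations of same-numbered deviations ran from -0.889 to 0.756, but the first component holds most of these deviations, so they cannot decide it. With the replicate number as a block the 48 h count was 0 (5.18%), the vehicle and 1,25(OH)2D counts for 6 to 24 h were 3 and 9, that for 24 to 48 h under 1,25(OH)2D stayed 2, and the others were 0.

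For the effect differences of 0 genes, 1 was called for 24 against 6 h without a filter or with an offset of 32, and 1 for 48 against 6 h without a filter, with the offset, with limma's trend and robust options or without the arrays that stood apart. Vehicle 6 to 24 h went from 4 to 1 with centring and to 2 without the arrays apart, and vehicle 24 to 48 h from 0 to 1 with quantile normalization, centring or the offset and to 3 without the arrays apart. Under 1,25(OH)2D, 6 to 24 h went from 11 to 5 without a filter, 4 with centring and 17 without the arrays apart, and 24 to 48 h from 2 to 1 with the stricter filter, quantile normalization, centring or second probe sets and to 4 without the arrays apart. Leaving out 1 array gave 0 to 0 for treatment at 6 and 24 h, both effect differences and vehicle 24 to 48 h, 0 to 10 for 48 h, 0 to 4 for vehicle 6 to 24 h, and 3 to 25 and 1 to 4 for the 1,25(OH)2D steps.

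Differences of the list mean moved beyond 1 SD with centring: 24 h from -0.047 to 0.120, 48 h from -0.110 to -0.074, and the 1,25(OH)2D steps from 0.004 to 0.193 and from -0.034 to -0.173. Vehicle 24 to 48 h went from 0.029 to 0.013 with all member probe sets. Over single arrays left out, the ranges were -0.043 to -0.016 at 6 h, -0.078 to -0.001 at 24 h, -0.122 to -0.097 at 48 h, 0.007 to 0.034 and 0.023 to 0.034 for the vehicle steps, and -0.027 to 0.049 and -0.080 to -0.003 for the 1,25(OH)2D steps. MCM8 at 48 h turned from -0.27 to 0.011 with its second probe set, and CDT1 from -0.13 to 0.025 without 1,25(OH)2D 48 h replicate 2 (range with single arrays left out, -0.22 to 0.025). The causes were not tested.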

Other observations

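In vehicle, 11 of 30 mitosis genes rose from 6 to 24 h and 0 fell, where 1040 of 26036 probe sets rose, against 2 of the 51 replication genes that rose and 2 that fell. Without the arrays that stood apart, 16 of the 30 rose, where 1333 of 26036 probe sets did, against 1 of the 51 replication genes that rose and 1 that fell. Those arrays were left out by their scores on the first component, and its part in these counts was not tested.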
